A study of Mus musculus with 6 samples.

Results

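The genes described here are 10 enzymes that build fatty acids, lengthen them and put double bonds into them: Acly, Acaca, Fasn, Elovl1, Elovl5, Elovl6, Scd1, Scd2, Fads1 and Fads2. They were taken by gene symbol from a table of 21604 symbols, and 10 of 10 were found and passed the filter on low counts. RNA was sequenced from RAW264.7, a mouse macrophage-like cell line whose labels also read bone marrow macrophage and wild type. The control libraries, 3 in number, came from cells that received LPS (lipopolysaccharide from the outer membrane of bacteria, a trigger of macrophage activation) at 100 ng/mL over 24 h. The treated libraries, also 3, came from cells that received that LPS dose together with 2 mg/mL PE-CUR over 24 h. The series title speaks of Pickering emulsions, droplets held by solid particles, that carry the plant polyphenol curcumin. All 6 libraries thus had LPS. The labels name no cells without LPS, no emulsion without curcumin and no free curcumin, so effects of the curcumin and of the emulsion cannot be told apart. Nothing in the labels says that replicates were separate cultures, so the p-values measure a spread between libraries that may be technical.

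Cells make fatty acids in the cytosol from citrate, which leaves the mitochondrion and is split into acetyl-CoA. Acetyl-CoA is carboxylated to malonyl-CoA, a single large synthase joins these units into palmitate, and enzymes of the endoplasmic reticulum then elongate and desaturate the chain. Elongases and desaturases also convert dietary linoleate and alpha-linolenate into long polyunsaturated fatty acids such as arachidonate, the precursor of prostaglandins and leukotrienes in macrophages. Many of these genes are known targets of the sterol regulatory element-binding proteins (SREBP) and of the liver X receptors (LXR).

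Among the 10 genes those that rose in the treated libraries belong to synthesis and elongation, and those that fell are desaturases. Acaca, Fasn, Elovl5 and Elovl6 rose by 1.36-fold to 1.70-fold. Scd1 fell 2.35-fold, and Fads1 and Fads2 each fell 1.43-fold. Acly, Elovl1 and Scd2 did not pass the test. This was edgeR's quasi-likelihood test over all 13014 genes with enough counts, with Benjamini-Hochberg adjustment and a threshold of 0.05. Of the 10 genes 4 were higher, 3 were lower and 3 did not pass. Among all tested genes 63.4% were called, 30.8% higher and 32.7% lower, so the 70% called among these 10 genes is near the background and is not by itself a result about them. The median log2 fold change, treated over control, was 0.06 over the 10 genes and -0.03 over all tested genes. Treated and control values did not overlap in 7 of the 10 genes, beside 69.0% of all tested genes.

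**Figure D1:**
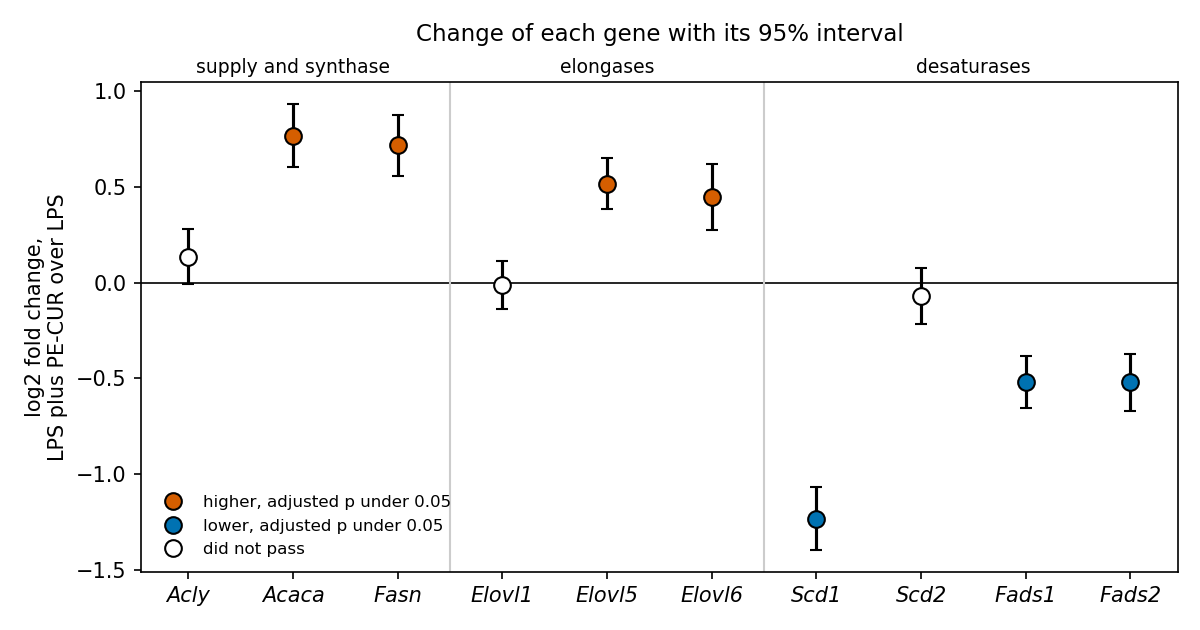
Log2 fold change of each of the 10 genes, treated (LPS plus PE-CUR) over control (LPS), with its 95% interval from the edgeR fit of 3 against 3 libraries, ordered by role. Orange points are called higher, blue points lower and white points did not pass. Called genes of synthesis and elongation lie between 0.45 and 0.77, and called desaturases between -1.23 and -0.52.

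Libraries held 28530750 to 35276533 counts, and the 10 genes together took 0.194% to 0.211% of them in the control libraries and 0.181% to 0.204% in the treated ones. Of 12 macrophage markers 12 had counts, with a summed level of 11903 to 12402 CPM (counts scaled to a common library size) in the controls and 9617 to 10730 CPM after treatment. Transcripts of liver, an organ rich in the enzymes described here, were spread unevenly. The summed level of 14 hepatocyte markers, all with counts, was 86.0 to 103 CPM in the controls, 4.19 and 3.92 CPM in treated replicates 1 and 2, and 105 CPM in treated replicate 3. In each of the 7 called genes treated replicate 3 lay outside the range of the controls, on the same side as treated replicates 1 and 2. Among the treated libraries it was the nearest to the controls for Elovl6, Fads1 and Fads2, and another replicate was the nearest for Acaca, Fasn, Elovl5 and Scd1. Of 10 adipocyte markers 7 were found and 7 had counts, but only 3 passed the filter on low counts. The 7 summed to 182 to 236 CPM in the controls and 204 to 282 CPM in the treated libraries. Their part, and that of the liver transcripts, in the results was not tested. In bulk RNA fewer cells of a kind and less RNA per cell cannot be told apart.

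Promoter sequences are shown for Fasn and Elovl5, which both rose, so that the letters near their start sites can be seen. The RefSeq table for GRCm38.p6, the assembly of mm10, held promoters for 7 of the 10 genes (Acly, Acaca, Fasn, Elovl1, Elovl5, Elovl6 and Fads2), and Scd1, Scd2 and Fads1 are named only. Each stretch runs from 250 to 11 bases before an annotated start, 5′ to 3′ on the strand of the gene, with motif matches in capitals. The motifs searched on both strands were CCAAT, bound by the NF-Y complex, the E-box CACGTG, the GC box GGGCGG and the sterol regulatory element TCACNCCAC.
Fasn, minus strand, chr11:120824558-120824797: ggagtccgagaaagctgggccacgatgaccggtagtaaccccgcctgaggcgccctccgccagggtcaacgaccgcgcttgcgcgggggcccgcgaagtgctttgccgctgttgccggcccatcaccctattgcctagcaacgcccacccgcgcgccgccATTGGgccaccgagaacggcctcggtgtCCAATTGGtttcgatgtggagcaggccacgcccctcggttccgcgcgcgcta
Elovl5, plus strand, chr9:77917115-77917354: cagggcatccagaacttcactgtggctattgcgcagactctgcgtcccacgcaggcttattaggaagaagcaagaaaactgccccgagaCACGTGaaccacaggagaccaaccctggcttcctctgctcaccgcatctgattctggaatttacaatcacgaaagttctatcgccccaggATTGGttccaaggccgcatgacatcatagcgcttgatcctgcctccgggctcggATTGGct
In Fasn the capitals mark 3 CCAAT matches that begin 90, 62 and 59 bases before the start, the last pair overlapping on opposite strands. In Elovl5 they mark CCAAT matches on the reverse strand at 71 and 17 bases and an E-box at 161 bases before the start. Over the 250 bases before the start, CCAAT occurs in 33.8% of all 32851 promoters, the E-box in 6.02%, the GC box in 32.7% and TCACNCCAC in 1.05%. Elovl6 and Acaca, which also rose, had none of the 4 motifs there. The Acaca promoter (84195188 to 84195437 on chromosome 11) belongs to a start inside the gene's span. So do the Fasn promoter printed above and each Elovl1 promoter. Fads2, which fell, had 1 GC box. Of the genes that did not pass, Acly had 4 GC boxes and Elovl1 had 1 CCAAT match and 7 GC boxes over its 2 promoters. TCACNCCAC was in none of the 8 promoters of these genes. A match is a description of the letters, not a bound site.

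Levels per gene length were compared with the deposited FPKM values, which divide counts by gene length and library total. Scd2, a desaturase that makes monounsaturated fatty acids, was at the top of the 10 genes in both groups, at 126 ± 6.81 FPKM in the controls and 116 ± 9.81 FPKM in the treated libraries (mean ± SD, n = 3). Among the controls it was followed by Fads1 (75.6 ± 3.92 FPKM) and Fads2 (69.0 ± 4.89 FPKM), whose ranges overlapped, then by Acly (37.5 ± 2.02 FPKM) and Elovl5 (36.9 ± 1.56 FPKM), whose ranges overlapped too. Elovl1 (21.6 ± 0.374 FPKM), Scd1 (18.9 ± 1.40 FPKM) and Fasn (14.8 ± 1.25 FPKM) came next without overlap between neighbours. Acaca (5.79 ± 0.314 FPKM) and Elovl6 (5.70 ± 0.264 FPKM) were lowest and overlapped.

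The order changed with treatment. Elovl5 (50.8 ± 0.868 FPKM) took the place after Scd2 and overlapped with Fads1 (50.8 ± 2.28 FPKM), followed by Fads2 (46.3 ± 2.48 FPKM) and Acly (39.6 ± 2.83 FPKM). Fasn (23.5 ± 1.67 FPKM) stood above Elovl1 (20.6 ± 0.888 FPKM). Scd1 (7.77 ± 0.559 FPKM) stood below Acaca (9.49 ± 0.924 FPKM) and overlapped with Elovl6 (7.48 ± 0.677 FPKM). Averaged over the 6 libraries, Scd2 lay at percentile 96.3 of tested genes by FPKM and Elovl6 at percentile 48.5, so the set spans from abundant to middling transcripts.

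**Figure D2:**
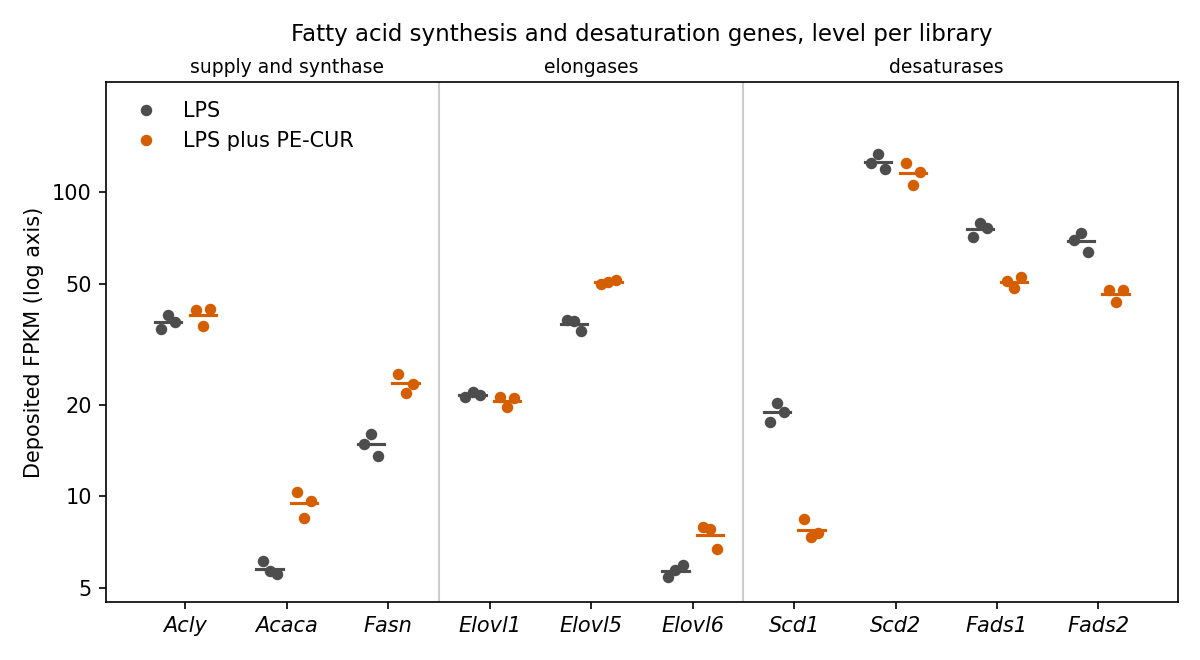
Deposited FPKM of the 10 genes on a log axis, 1 point per library with the group mean as a line, controls (LPS) in grey and treated libraries (LPS plus PE-CUR) in orange. Treated points lie above for Acaca, Fasn, Elovl5 and Elovl6 and below for Scd1, Fads1 and Fads2, and the points overlap for Acly and Scd2. For Elovl1 the treated points, up to 21.22 FPKM, lie just below the controls, from 21.23 FPKM, although its TMM-scaled values overlap.

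The first steps supply the building blocks. Values from here on are CPM scaled by edgeR's TMM factors (a correction for library composition), in the order of replicates 1 to 3. Acly, ATP-citrate lyase, makes cytosolic acetyl-CoA from citrate (chromosome 11, 100476352 to 100528000, mm10). It had 274, 306 and 286 CPM in the control libraries and 320.2, 296 and 335 CPM in the treated ones. Control replicate 2 lay above treated replicate 2, the only overlap (log2 fold change 0.14, 95% interval -0.01 to 0.28, edgeR adjusted p = 0.0891). Without control replicate 2 the log2 fold change of Acly was 0.22 (edgeR adjusted p = 0.0218). Without treated replicate 2, the other library of that overlap, it was 0.23 (edgeR adjusted p = 0.0158), and both passed the threshold. It did not pass without treated replicate 3 (edgeR adjusted p = 0.185) or with library totals alone (edgeR adjusted p = 0.319). Acly did not pass in 13 of 17 alternative fits.

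Acaca, acetyl-CoA carboxylase 1, makes malonyl-CoA, the committed step of the pathway (chromosome 11, 84129635 to 84401651). It had 64.4, 59.7 and 57.7 CPM in the control libraries and 109, 94.1 and 106 CPM in the treated ones. Each treated library lay above each control, and Acaca rose 1.70-fold (log2 fold change 0.77, SE 0.07, edgeR adjusted p = 5.84e-06). Of the 50-base stretches in its GENCODE M21 transcripts 29.2% also occur in the pseudogene Gm5182, so how reads from those stretches were counted is uncertain. Fasn, the synthase that makes palmitate (chromosome 11, 120805958 to 120825166), had 153, 165 and 138 CPM in the control libraries and 262, 238 and 251 CPM in the treated ones. The groups were separate, and Fasn rose 1.64-fold (log2 fold change 0.72, SE 0.07, edgeR adjusted p = 8.07e-06). Fasn shared 0 such stretches with other genes. By size of the rise Acaca was at place 1349 and Fasn at place 1496 of the 4004 genes called higher.

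Elongases add carbon pairs to the chain. Elovl6 lengthens palmitate to stearate (chromosome 3, 129532386 to 129638495). It had 31.7, 33.7 and 34.5 CPM in the control libraries and 46.8, 48.4 and 41.1 CPM in the treated ones, separate in all libraries, and rose 1.36-fold (log2 fold change 0.45, SE 0.08, edgeR adjusted p = 4.94e-04). Elovl5, which lengthens polyunsaturated chains (chromosome 9, 77917365 to 77984519), had 118, 118 and 108 CPM in the control libraries and 157, 167 and 169 CPM in the treated ones. Its treated libraries all lay above the controls, and it rose 1.43-fold (log2 fold change 0.52, SE 0.06, edgeR adjusted p = 2.35e-05). Elovl1, which makes very long saturated and monounsaturated chains (chromosome 4, 118426874 to 118432953), had 92.8, 96.3 and 93.4 CPM in the control libraries and 93.6, 90.4 and 96.5 CPM in the treated ones. On this scale the groups intermixed (log2 fold change -0.01, 95% interval -0.13 to 0.11, edgeR adjusted p = 0.887). Elovl1 overlaps the opposite-strand cell cycle gene Cdc20, which had 373 to 559 counts in the controls and 1773 to 2123 in the treated libraries. The strand setting of the counting is unknown here, and 0.139% of the 50-base stretches of Elovl1 also occur in Cdc20, so the part of Cdc20 reads in Elovl1 was not tested.

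Desaturases introduce double bonds. Scd1 makes oleate and palmitoleate from saturated chains (chromosome 19, 44394450 to 44407709). It had 83.4, 97.1 and 89.3 CPM in the control libraries and 40.3, 36.8 and 37.7 CPM in the treated ones. The groups were far apart, and Scd1 fell 2.35-fold (log2 fold change -1.23, SE 0.07, edgeR adjusted p = 2.46e-07, with a 95% interval of -1.39 to -1.07). Scd2, its paralogue with the same reaction (chromosome 19, 44293676 to 44306864), had 671, 715 and 636 CPM in the control libraries and 676, 596 and 655 CPM in the treated ones. Those groups overlapped widely (log2 fold change -0.07, 95% interval -0.22 to 0.08, edgeR adjusted p = 0.382). The paralogues lie 87.6 kb apart. Of the 50-base stretches of Scd1, 2.97% also occur in Scd2, 3.42% in Scd3 and 4.56% in any other gene.

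Within each library there were 0.124, 0.136 and 0.141 Scd1 counts per Scd2 count in the controls and 0.0597, 0.0618 and 0.0576 after treatment. This ratio does not depend on how libraries are scaled. It was lower in each treated library than in each control, with a difference of -1.16 on the log2 scale (exact two-sided permutation test p = 0.1, the smallest that 3 against 3 libraries can give, 0.3 adjusted over 3 ratios). Scd3 and Scd4, further members of the family, were low, at 1.91 ± 0.188 and 2.31 ± 0.779 CPM and at 0.520 ± 0.0618 and 0.496 ± 0.0824 CPM in controls and treated libraries, with edgeR adjusted p-values of 0.404 and 0.882.

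Fads2 is the first desaturase on the path from linoleate to arachidonate, and Fads1 acts further along it. Fads1 (chromosome 19, 10182877 to 10196874) had 248, 276 and 264 CPM in the control libraries and 180.0, 178 and 193 CPM in the treated ones. The groups were separate, and Fads1 fell 1.43-fold (log2 fold change -0.52, SE 0.06, edgeR adjusted p = 2.46e-05). Fads2 (chromosome 19, 10062765 to 10101503) had 199, 211 and 181 CPM in the control libraries and 138, 131 and 143 CPM in the treated ones. It also fell 1.43-fold (log2 fold change -0.52, SE 0.07, edgeR adjusted p = 5.56e-05), again without overlap. These genes lie 81.4 kb apart and shared 0 stretches of 50 bases.

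The ratio of Fads1 to Fads2 overlapped between the groups. There were 1.25, 1.31 and 1.46 Fads1 counts per Fads2 count in the controls and 1.31, 1.35 and 1.35 in the treated libraries, and the mean log2 ratio was 0.42 ± 0.12 and 0.42 ± 0.03 (SD, n = 3, exact two-sided permutation test p = 1, adjusted 1). For the elongases Elovl5 and Elovl6 the log2 ratio was 1.78 ± 0.12 and 1.86 ± 0.16, and the groups overlapped (SD, n = 3, exact two-sided permutation test p = 0.7, adjusted 1). These p-values do not show that the ratios were equal.

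**Figure D3:**
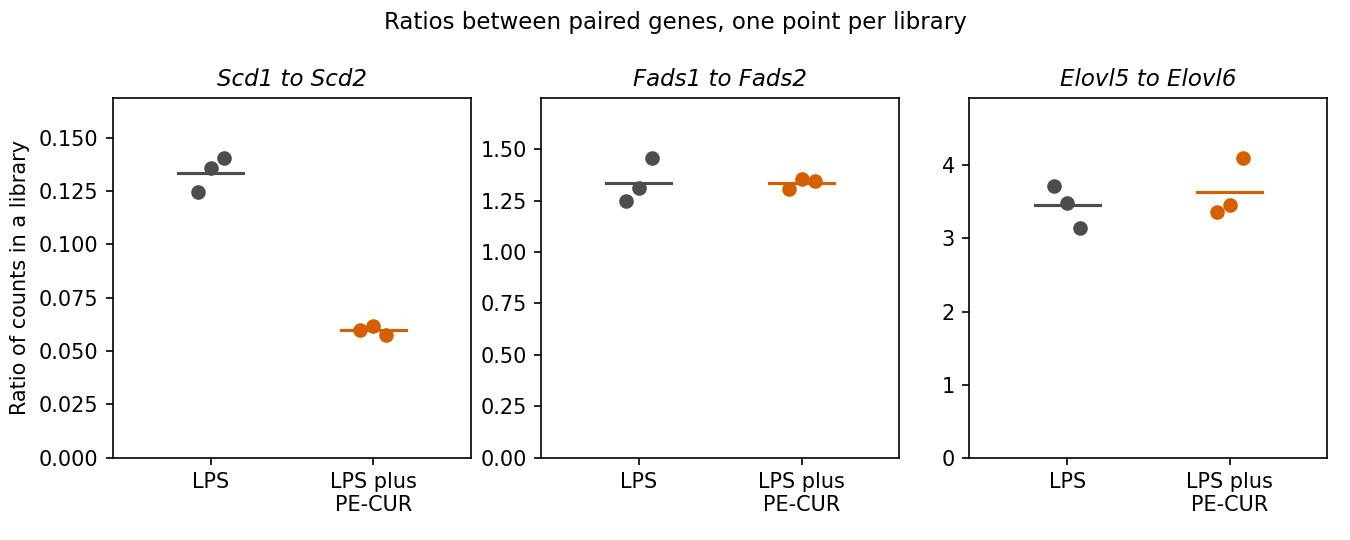
Ratio of the counts of paired genes within each library, 1 point per library with the group mean as a line, controls (LPS) in grey and treated libraries (LPS plus PE-CUR) in orange, on axes that start at 0. The ratio of Scd1 to Scd2 was 0.124 to 0.141 in the controls and 0.0576 to 0.0618 in the treated libraries, while the other ratios overlap between the groups.

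The make-up of the set shifted alike in all treated libraries. Desaturases held 62.0% to 62.5% of the counts of the 10 genes in the controls and 50.2% to 51.1% after treatment. Acly, Acaca and Fasn held 25.4% to 25.6% and then 33.5% to 34.2%, and elongases 11.9% to 12.5% and then 14.7% to 16.3%. These are shares of raw counts, not adjusted for gene length. They add up to a fixed total, so a lower share of desaturases by itself means a higher share of the rest. By role, 2 of 3 genes of supply and synthesis rose, 2 of 3 elongases rose and 3 of 4 desaturases fell, beside 30.8% higher and 32.7% lower among all tested genes.

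Other genes of the pathway were taken from a list of 37, of which 36 were in the table and 32 were tested. Of these 5 rose, 11 fell and 16 did not pass, with a median log2 fold change of -0.08, and 50% were called beside 63.4% of all tested genes. Cyb5r1, a reductase of the cytochrome b5 family, fell from 343 ± 26.0 to 111 ± 6.21 CPM (edgeR adjusted p = 4.70e-08). Hacd4, a dehydratase of the elongation cycle, fell from 18.0 ± 0.696 to 5.35 ± 1.09 CPM, and Hsd17b12, the ketoreductase of that cycle, from 271 ± 10.3 to 191 ± 14.8 CPM. Elovl4, an elongase of very long chains, fell from 1.58 ± 0.365 to 0.222 ± 0.0405 CPM and had 6 to 9 counts in the treated libraries. Mecr, the reductase of the separate mitochondrial pathway, rose from 23.9 ± 1.51 to 40.7 ± 1.64 CPM, and Cyb5b, the cytochrome b5 of the outer mitochondrial membrane, from 172 ± 8.32 to 222 ± 7.52 CPM.

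Further genes of the list were chosen after their values were seen. The other 3 that rose were Hacd2 (from 59.5 ± 5.05 to 149.5 ± 40.7 CPM), Hacd3 (from 111 ± 4.25 to 128 ± 6.40 CPM) and Ndufab1, the mitochondrial acyl carrier (from 51.4 ± 2.37 to 67.2 ± 1.89 CPM). Hacd2 was uneven, with 196, 129 and 123 CPM in the treated libraries. Desaturases draw electrons through cytochrome b5, and its microsomal form Cyb5a fell from 139.6 ± 7.45 to 98.8 ± 5.71 CPM (edgeR adjusted p = 6.00e-05). Its reductase Cyb5r3 fell from 161 ± 10.1 to 121 ± 4.57 CPM (edgeR adjusted p = 1.66e-04). Fads3 and Fads6, of the same family as Fads1 and Fads2, fell from 2.74 ± 0.418 to 1.17 ± 0.462 CPM and from 22.7 ± 1.76 to 15.3 ± 1.004 CPM.

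Several genes that deliver citrate, acetate and NADPH were also chosen after their values were seen. The citrate carrier Slc25a1 was at 51.6 ± 2.76 and 53.0 ± 3.89 CPM, acetyl-CoA synthetase Acss2 at 20.5 ± 1.34 and 21.1 ± 2.27 CPM and isocitrate dehydrogenase Idh1 at 177 ± 8.95 and 179.6 ± 11.3 CPM in controls and treated libraries, and none of these passed. Malic enzyme Me1 had 100.0, 104 and 106 CPM in the controls and 153, 85.2 and 80.8 CPM in the treated libraries, replicate 1 standing apart. Pgd of the pentose phosphate path fell from 305 ± 16.8 to 274 ± 8.76 CPM (edgeR adjusted p = 0.0380). Acacb, the carboxylase linked to fatty acid oxidation, fell from 3.24 ± 0.511 to 1.68 ± 0.957 CPM (edgeR adjusted p = 0.0403), with overlapping groups.

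Regulators of transcription were taken from a list of 25, of which 22 were tested, with 8 higher, 8 lower and 6 that did not pass (median log2 fold change 0.10, 72.7% called beside 63.4% of all tested genes). Srebf1, which encodes the SREBP best known for driving fatty acid synthesis, had 60.8, 71.8 and 65.6 CPM in the control libraries and 82.2, 75.2 and 77.9 CPM in the treated ones. The treated libraries lay just above, and Srebf1 rose 1.19-fold (log2 fold change 0.25, SE 0.07, edgeR adjusted p = 0.0123). Its call as higher ended with library totals alone (edgeR adjusted p = 0.05002) and when limma was run on log2 FPKM in 3 ways, where its adjusted p was 0.0675 to 0.130. Srebf2, the SREBP of sterol synthesis, was at 198 ± 8.04 and 214 ± 21.5 CPM, and its escort Scap at 64.1 ± 2.94 and 61.1 ± 4.91 CPM, and neither passed (edgeR adjusted p = 0.221 and 0.433). Without treated replicate 2 the log2 fold change of Srebf2 was 0.22 (edgeR adjusted p = 0.0272). Without the filter on low counts it was 0.16 (edgeR adjusted p = 0.0463), and both passed the threshold. In the other 15 of 17 alternative fits Srebf2 did not pass, with a log2 fold change down to 0.048.

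Insig1 and Insig2 encode the proteins that hold SREBP and Scap in the endoplasmic reticulum. Insig1 had 88.0, 106 and 86.2 CPM in the control libraries and 54.9, 61.9 and 65.7 CPM in the treated ones, and fell 1.54-fold (log2 fold change -0.62, SE 0.10, edgeR adjusted p = 2.59e-04). Insig2 had 58.1, 60.6 and 62.6 CPM in the control libraries and 27.9, 26.0 and 25.4 CPM in the treated ones, and fell 2.29-fold (log2 fold change -1.19, SE 0.07, edgeR adjusted p = 2.17e-07). In both genes the groups were separate. The proteases that release SREBP rose, Mbtps1 from 98.7 ± 2.77 to 125 ± 7.60 CPM and Mbtps2 from 86.8 ± 3.44 to 123 ± 4.23 CPM. Sp1, a factor that binds GC boxes, rose from 129 ± 3.27 to 179 ± 5.05 CPM. Nfya, a subunit of the CCAAT-binding NF-Y complex, rose from 80.0 ± 2.45 to 109.7 ± 2.53 CPM. Its partners Nfyb and Nfyc, chosen after their values were seen, rose from 16.0 ± 0.338 to 22.5 ± 2.36 CPM and from 18.3 ± 2.89 to 27.2 ± 0.907 CPM.

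The LXR genes were lower. Nr1h3, which encodes LXR alpha, fell from 4.43 ± 0.278 to 2.61 ± 0.572 CPM (edgeR adjusted p = 0.00579), and Nr1h2, LXR beta, from 47.6 ± 2.69 to 38.7 ± 0.919 CPM (edgeR adjusted p = 0.00282). Their partner Rxra fell from 4.55 ± 1.16 to 0.942 ± 0.372 CPM. Mlx, the partner of the carbohydrate response factor, did not pass at 70.2 ± 2.75 and 66.5 ± 1.44 CPM, and Mlxipl, that factor itself, had 0 to 5 counts per library and was not tested.

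Sterol synthesis genes, which share the SREBP system, were compared as the nearest other pathway. Of 20 listed genes 19 were tested, 3 rose, 10 fell and 6 did not pass (median log2 fold change -0.20, 68.4% called beside 63.4% of all tested genes). The count of sterol genes called higher was 5 without control replicate 2 and 6 without the filter on low counts. The count called lower ranged from 7 to 11 over the alternative fits. Cyp51, Sc5d and Msmo1, enzymes between lanosterol and cholesterol, fell from 146 ± 7.45 to 82.9 ± 2.89 CPM, from 135 ± 3.87 to 82.8 ± 3.66 CPM and from 223 ± 15.1 to 153 ± 7.86 CPM. Acat2, an acetoacetyl-CoA thiolase, and Stard4, a sterol carrier, rose from 24.7 ± 3.03 to 44.7 ± 3.31 CPM and from 51.7 ± 2.07 to 63.7 ± 2.17 CPM. Whether the fatty acid genes differ from the sterol genes as a group was not tested.

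**Figure D4:**
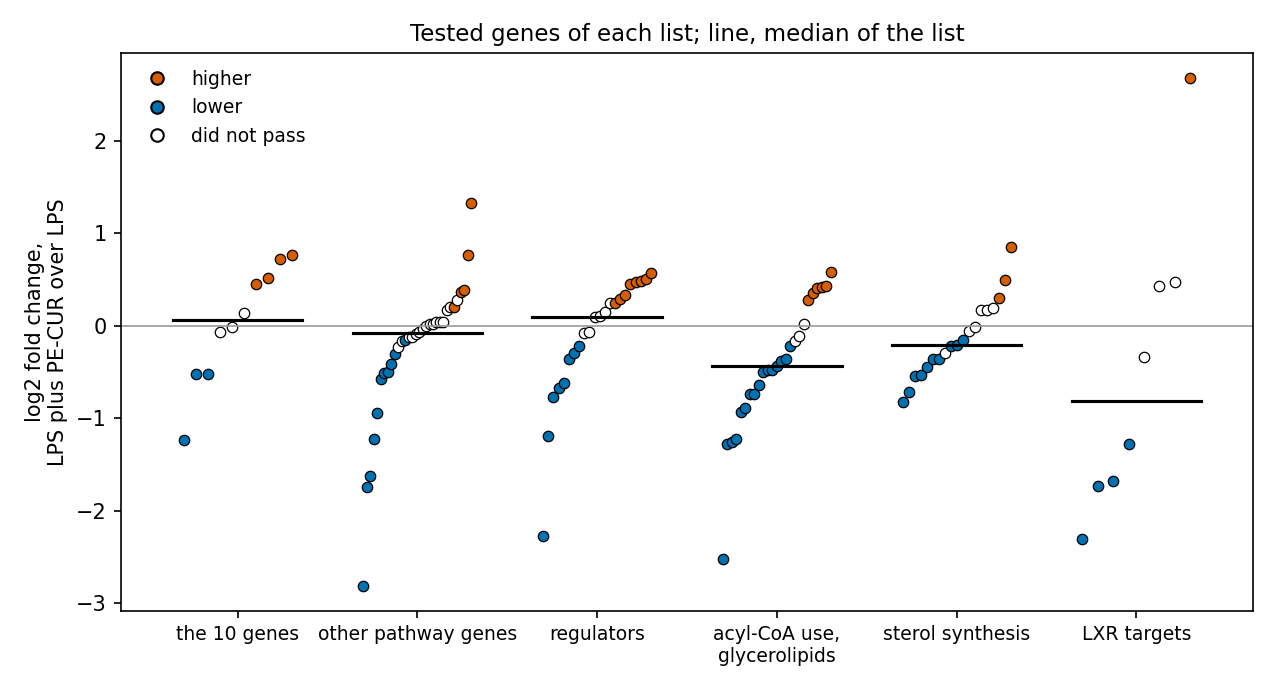
Log2 fold change, treated (LPS plus PE-CUR) over control (LPS), of each tested gene in 6 lists, 1 point per gene sorted by value within its list, with the median of the list as a line. Orange points are called higher, blue points lower and white points did not pass. The 10 genes spread from -1.23 to 0.77 around a median of 0.06, and the lists of glycerolipid genes and LXR targets have medians of -0.43 and -0.81.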

How the data were processed

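The authors deposited whole-number counts per gene symbol and FPKM values for the same 6 libraries. The submitters' processing notes list fastp, HTSeq, SAMtools, DESeq2 and mm10, with no versions. The aligner, annotation and strand setting are not given in the sources. The deposited FPKM values equal counts rescaled by 1 length per gene and the library total in 100% of 105337 values above 0 (relative tolerance 1e-04), so they are no independent measurement.

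Counts were analysed with edgeR 4.0.16 in R 4.3.3. filterByExpr left 13014 genes, libraries were scaled by TMM, and a robust quasi-likelihood model compared the groups with no covariate. P-values are two-sided and Benjamini-Hochberg adjusted over all tested genes. SE was computed as the log2 fold change over the square root of F. The script was tested on simulated data. Alternatives were other scalings and filters, DESeq2 1.42.0, limma 3.58.1 (voom, log2(FPKM + 1) and log2(FPKM + 0.1)), a replicate block, omission of single libraries, and removal of 13 mitochondrial and the 10 most abundant genes.

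The 10 genes and all lists were chosen with earlier results of these data known. Beside the 10 genes and a fixed set of regulators, up to 4 called genes with the smallest p in the majority direction of each list and up to 2 in the other are named. A gene that this rule names is not reported here. Genes were not named by likeness of pattern, since the libraries fall into 2 groups. Positions are RefSeq's for GRCm38.p6 (10 of 10 symbols matched), and overlaps and shared 50-base stretches come from GENCODE M21.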

Additional observations from a re-analysis of the deposited data

How the results depend on the processing

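Each of the 7 called genes among the 10 kept its direction and its call under all 17 alternatives. The count of those called higher was 4 to 5, Acly being the added gene (without a filter, with control or treated replicate 2 left out, and after removal of mitochondrial and abundant genes), and the count called lower was 3 throughout. Elovl1, Scd2 and Scap, which did not pass, changed sign near 0, while Acly, Srebf2 and Mlx, which also did not pass, kept theirs. The log2 fold change of Elovl1 was 0.0083 with median-ratio factors, 0.0081 with DESeq2, 0.045 without a filter, 0.024 without mitochondrial and abundant genes, and -0.011 to 0.057 with 1 library left out. With 1 library left out Scd2 ranged from -0.080 to 0.024 and Scap from -0.11 to 0.010. The difference in log2 ratio ranged from -0.050 to 0.063 for Fads1 to Fads2, from -0.016 to 0.13 for Elovl5 to Elovl6 and from -1.21 to -1.12 for Scd1 to Scd2. Other pathway genes called lower numbered 8 to 15 over the alternatives.

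The labels do not say whether same-numbered libraries belong together. Deviations of same-numbered libraries correlated at -0.10, -0.18 and -0.05, beside -0.05 to 0.17 for differently numbered ones. These values do not show that no batch was shared. With the replicate number as a block 4 of the 10 genes were higher and 3 lower, and of all genes 3708 were higher and 3953 lower. No call of the 10 genes changed under the block. Genes with few counts, such as Elovl4, Rxra and Arl4c, have wide errors.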

Other observations

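Genes that activate fatty acids and build them into glycerolipids were mostly lower in the treated libraries. Of 27 listed genes 25 were tested, of which 6 rose, 16 fell and 3 did not pass (median log2 fold change -0.43, beside -0.03 over all tested genes), and 88% were called beside 63.4% of all tested genes. The count called lower ranged from 12, without control replicate 3, to 16 over the alternatives. Lpcat3, which places polyunsaturated chains into phospholipids, fell from 105 ± 5.03 to 43.4 ± 3.70 CPM (mean ± SD over 3 libraries, edgeR adjusted p = 2.17e-07). Acsl3, an acyl-CoA synthetase, fell from 89.9 ± 3.23 to 54.0 ± 2.34 CPM. The glycerolipid enzymes Lpin1 and Gpat3 fell from 42.2 ± 1.09 to 17.7 ± 2.88 CPM and from 27.9 ± 2.37 to 12.0 ± 1.48 CPM. Acsl5, another acyl-CoA synthetase, rose from 191 ± 9.43 to 284 ± 10.2 CPM and Agpat5, which makes phosphatidic acid, from 66.7 ± 3.16 to 88.7 ± 5.27 CPM.

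Among 8 known LXR targets 1 rose, 4 fell and 3 did not pass (median log2 fold change -0.81, 62.5% called beside 63.4% of all tested genes). Those that did not pass were Abca1, Abcg1 and Apoe. The count called higher was 2 with DESeq2, with the replicate block, without the filter on low counts, and without treated replicate 1 or treated replicate 2. Pltp, a phospholipid transfer protein, fell from 32.4 ± 2.03 to 10.2 ± 0.582 CPM, and Smpdl3a from 22.0 ± 2.13 to 6.60 ± 0.147 CPM, and Lpcat3 belongs to this list too. Arl4c fell from 1.36 ± 0.742 to 0.267 ± 0.212 CPM and had 2 to 16 counts in the treated libraries. Mylip, a ubiquitin ligase, rose from 0.979 ± 0.412 to 6.31 ± 1.94 CPM (edgeR adjusted p = 7.50e-05). Whether either list stands apart from other genes was not tested.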
